A study of Mus musculus with 32 samples.

Results

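Neurons hold long noncoding RNAs that act mainly in the nucleus, where they build nuclear bodies, hold splicing factors or come from imprinted loci and from the host genes of small nucleolar RNAs (snoRNAs). A neuron's dendrites contain no nucleus, so the comparison of dendrites with the soma of the same cell asks how reads of such RNAs divide between the compartments. The 9 genes described here are Malat1, Meg3, Miat, Rian, Neat1, Snhg11, Peg13, Dlx6os1 and Gas5. They were given by name, and all 9 are among the 44081 genes with a count on 3′UTR regions and among the 10880 of those genes that passed the filter on low counts.

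The samples were 16 single hippocampal neurons of C57BL/6 mice, taken at embryonic day 18 and kept in culture for 15 days. The soma and the severed dendrites of each neuron were aspirated separately, which gave 16 somas and 16 dendrites paired by cell. Poly-adenylated RNA was amplified with aRNA, an in vitro transcription method, in 3 rounds for neurons 1 to 4 and in 2 rounds for neurons 5 to 16. All samples shared the strain and the culture age, and the neurons were taken unstimulated. The cells came from several cultures and days, which the labels do not assign to neurons. Somas held 925525 to 21169974 reads on 3′UTRs and dendrites 646521 to 6954420. The 9 genes together took 0.0219% to 1.28% of these reads in somas (median 0.210%) and 0.0412% to 0.234% in dendrites (median 0.0992%).

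The neuronal markers Map2, Tubb3, Rbfox3, Snap25, Syt1 and Eno2 were present in both compartments, with a summed level of 9122 to 22101 normalized reads in somas and 6870 to 19729 in dendrites. Normalized reads are counts divided by median-of-ratios size factors. Of these 6 genes Map2, a dendritic microtubule protein, was called higher in dendrites (log2 fold change 2.66 ± 0.49, edgeR adjusted p = 0.00202). Gad1 and Gad2, which make the transmitter GABA, had reads in all 32 samples. Markers of glia and vessels were lower. The 5 astrocyte markers summed to a median of 95.9 normalized reads in dendrites (0 to 1171) and 37.1 in somas (0 to 529), and the 5 microglia markers to 2.29 (0 to 1224) and 0.420 (0 to 30.7). The 5 oligodendrocyte markers summed to a median of 15.9 in dendrites (0 to 422) and 4.42 in somas (0 to 379). The 5 endothelial markers summed to a median of 3.86 (0 to 142) and 0.609 (0 to 348), with Cldn5 at 0 in all samples. The part of such cells in the values below was not tested.

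A few libraries stood apart. The dendrites of neurons 15 and 16 held reads of 3888 and 6252 genes, the fewest of all libraries, and spike-ins took 17.1% and 7.55% of their exon and spike-in reads against a dendrite median of 1.51%. The soma of neuron 12 was the least like the other somas, with a mean correlation of 0.470 across genes. The calls were therefore also made without these 3 neurons, where 0 of the 9 genes passed the test. Few genes passed in that fit, with 0.901% of 10880 called higher in somas and 0.46% higher in dendrites.

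The 3′ ends of these RNAs are shown first, because the amplification starts at a poly(A) tail and the reads were counted near 3′ ends. Each line gives the last 30 bases of a GENCODE transcript (mouse release 21, GRCm38, the same build as mm10), 5′ to 3′, with the poly(A) signals AATAAA and ATTAAA in capitals where they occur on the transcript strand. The transcripts are the longest of each gene, and the short form of Neat1 is added.
Malat1: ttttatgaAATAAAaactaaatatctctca
Meg3: gctttcAATAAAtttcttgttttaactaaa
Miat: atttcaatATTAAAaccgacacacactgga
Rian: atacttatatgagtgaaaaAATAAAaaaaa
Neat1, long form: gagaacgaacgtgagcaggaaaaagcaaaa
Neat1, short form: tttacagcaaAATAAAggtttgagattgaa
Snhg11: gaaccacaaAATAAAcactgtcttccttaa
Peg13: taAATAAAtgttgcaagtgtgcctcctgaa
Dlx6os1: gaaactgctgcagttcttcctataagcata
Gas5: ttttaccATTAAAgtgtattataacatgaa
A signal stood in the last 30 bases of 27.2% of 33542 long noncoding transcripts and of 44.1% of 58793 protein-coding transcripts in the same annotation. The annotated ends of the long form of Neat1 and of Dlx6os1 held neither signal in this window.

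Malat1 and the long form of Neat1 are known to be cut at an A-rich stretch written in the genome rather than tailed in the usual way. Malat1 and the last 30 bases of the long form of Neat1 share the run AAAAAGCAAAA, shown in capitals. It ends at base 6691 of Malat1, with 292 annotated bases after it, and at the last base of Neat1.
Malat1, chr19:5795975-5796004, minus strand: gctttaaaaaaaAAAAAGCAAAAgacgctg
Neat1, chr19:5824708-5824737, minus strand: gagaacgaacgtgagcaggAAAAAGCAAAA
The same 11 letters occur somewhere in 0.313% of 33554 long noncoding transcripts and in 0.628% of 58797 protein-coding transcripts. Malat1 and Neat1 are neighbours on chromosome 19, both on the minus strand.

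Snhg11, a snoRNA host gene (chromosome 2, 158375638 to 158386145, plus strand, mm10), fell in dendrites relative to somas. It had reads in all 16 somas and all 16 dendrites. Normalized reads ran from 27.4 through a median of 1077 to 12538 in somas, and from 3.38 through 209 to 1106 in dendrites. The ranges overlapped, and the level was higher in the soma in 13 of 16 neurons, the exceptions being neurons 2, 5 and 6. The log2 fold change of dendrites over somas was -2.86 ± 0.72 (SE, n = 16 pairs; edgeR quasi-likelihood test with neuron as a block, adjusted p = 0.0172). Of the 9 genes 1, Snhg11, was called higher in somas, while 5.71% of the 10880 genes tested were called in that direction. No member was called higher in dendrites, where 0.827% of genes were; none of the 9 reached an unadjusted p under 0.05 in that direction, and DESeq2, which called 4.26% of genes there, called 0 of the 9. The Snhg11 call was lost without neuron 16 (log2 fold change -2.47, adjusted p = 0.0509) and without neurons 12, 15 and 16 together (-2.39 ± 0.78, adjusted p = 0.105; 0.901% of genes were called).

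These fold changes have to be read against the other genes. The median gene of the same fit had a log2 fold change of -1.49, so that most genes were lower in dendrites after scaling. Snhg11 was 1.37 below this median on the log2 scale, and 24.5% of genes had a lower fold change. The median covers genes of all levels, while Snhg11 had a higher mean level than 98.3% of them. Distances to the median gene, here and below, are not matched for level. After the dendrite libraries were rescaled so that the median gene was at 0, the log2 fold change of Snhg11 was -1.32 ± 0.74 and the call was lost (adjusted p = 0.316; 0.827% of genes were called higher in somas). A smaller amount of all RNA in a dendrite sample and less of a given RNA cannot be told apart without an outside scale, and the spike-in values below carry that scale.

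**Figure D1:**
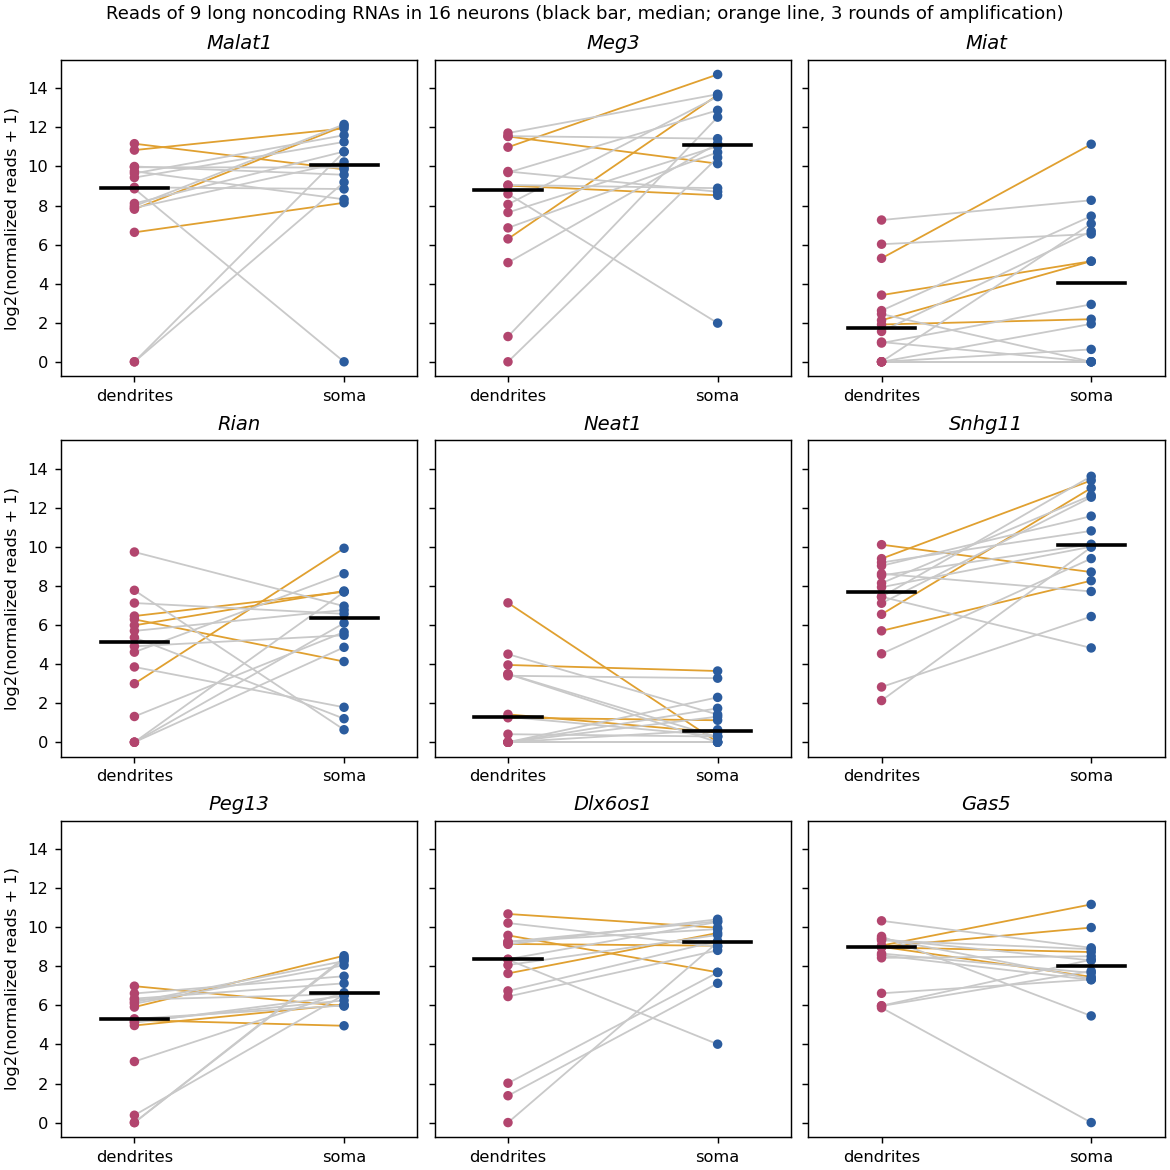
Normalized reads of the 9 genes on a log2(value + 1) scale, with the dendrites (red) and the soma (blue) of each neuron joined by a line, orange for the 4 neurons with 3 rounds of amplification and grey for the 12 with 2 rounds; black bars are medians over 16 samples. Snhg11 was higher in the soma in 13 of 16 neurons, Peg13 in 14 and Gas5 in 6, and the points at 0 include Malat1 in the soma of neuron 12 and in the dendrites of neurons 15 and 16.

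Meg3 and Rian come from the same imprinted domain on chromosome 12, where both are transcribed from the maternal copy. Meg3 (109541001 to 109571726, plus strand) lies between the coding genes Dlk1 and Rtl1. It had reads in 16 somas and 15 dendrites. Its somas ran from 2.95 through a median of 2204 to 26847 normalized reads and its dendrites from 0 through 452 to 3354.5. The soma was higher in 10 of 16 neurons and the ranges overlapped. The log2 fold change was -2.58 ± 0.90 and did not pass the test on 3′UTR counts (adjusted p = 0.0650). On exon counts it was -2.22 ± 0.55 and passed (adjusted p = 0.0114), where 2.62% of 9804 genes were called higher in somas. It also passed with all genes that had at least 1 read (adjusted p = 0.0181, where 0.46% of 31102 genes were called) and with DESeq2 (adjusted p = 0.000718, where 46.2% of genes were called). Without neurons 12, 15 and 16 the 3′UTR value was -2.26 ± 0.89 (adjusted p = 0.178). The soma of neuron 12 held 2 reads of Meg3 on 3′UTR regions but 614 on exons.

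Rian (109603940 to 109661716, plus strand), a host of snoRNAs and microRNAs, holds 13 annotated snoRNAs and 4 microRNAs. The annotated gene Gm26945 overlaps Rian on the same strand, so strand could not separate their reads. Rian had reads in 16 somas and 13 dendrites. Normalized reads ran from 0.556 through 80.7 to 974 in somas and from 0 through 34.6 to 853 in dendrites. The 2 tables differed most for this gene apart from Neat1, since exon reads came to 36.0% of the 3′UTR reads. The dendrites of neuron 13, for example, held 331 reads on 3′UTR regions and 19 on exons. The log2 fold change was -1.19 ± 1.42 (adjusted p = 0.558), and 0.04 ± 1.17 without neurons 12, 15 and 16, so no direction is given for Rian.

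The rest of the domain was sparse. Of its 6 listed genes 3 were tested, Meg3, Rian and Mirg, and none was called in either direction (median log2 fold change -2.58 against -1.49 over all genes). Mirg, a microRNA host, had reads in 11 somas and 5 dendrites and a log2 fold change of -3.74 ± 1.27 (adjusted p = 0.0610). The coding genes of the domain did not pass the filter. Dlk1 had 9 reads over 6 somas and 426 over 6 dendrites, with 997 normalized reads in the highest dendrite library, Dio3 had reads in 2 somas and 2 dendrites, and Rtl1 had 1 read in all.

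Peg13, transcribed from the paternal copy of chromosome 15 (72805600 to 72810324, minus strand), lies on the same strand inside an intron of Trappc9, so reads of unspliced Trappc9 there could not be told from Peg13. It had reads in 16 somas and 14 dendrites. Somas ran from 30.04 through 96.8 to 372 normalized reads and dendrites from 0 through 37.9 to 126. The soma was higher in 14 of 16 neurons, the largest number of neurons for any of the 9 genes. Its log2 fold change of -1.66 ± 1.03 did not pass the test (adjusted p = 0.257), and lay at -0.17 against the median gene. Trappc9, with reads in 16 somas and 10 dendrites, was at -2.06 ± 1.41 (adjusted p = 0.303).

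Among 7 tested genes of the list of imprinted and X-inactivation RNAs, Peg13 included, 0 were called in either direction, and their median log2 fold change was 1.30. Kcnq1ot1, an antisense RNA of an imprinted cluster, had reads in all 16 somas and all 16 dendrites at 1.57 ± 0.91 (adjusted p = 0.228), and Snhg14 was at -0.50 ± 0.99.

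Malat1 (chromosome 19, 5795690 to 5802672), an RNA of nuclear speckles, had reads in 15 somas and 14 dendrites. Somas ran from 0 through 1092.6 to 4558 normalized reads and dendrites from 0 through 475 to 2299.8. The soma was higher in 10 of 16 neurons. Its log2 fold change was -1.29 ± 0.83 (adjusted p = 0.272), 0.20 above the median gene, and 54.1% of genes had a lower fold change. The soma of neuron 12 held 0 of 1823821 reads, which allows up to 4.42 normalized reads; the dendrites of neurons 15 and 16 held 0 as well, which allows up to 5.07 and 4.36. These limits rest on 3 counts and cover counting error only. Among the settings tried, Malat1 was called higher in somas only when spike-ins set the scale (-3.91 ± 1.09, adjusted p = 0.00276).

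Neat1 (5824708 to 5845478), the RNA scaffold of paraspeckles, was close to the limit of these libraries. It had 44 reads over 12 somas and 87 over 10 dendrites, and 40 of the latter were in the dendrites of neuron 1 and 23 in those of neuron 8. At least 10 reads were found in 1 soma and 2 dendrites. Normalized reads ran from 0 through 0.482 to 11.5 in somas and from 0 through 1.42 to 139 in dendrites. A log2 fold change of 1.42 ± 1.02 did not pass the test (adjusted p = 0.328). Exon counts held 21 reads of Neat1, all in the dendrites of neuron 8.

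Proteins of speckles and paraspeckles were measured in the same fit. All 18 listed genes were tested, 2 were called higher in somas and 0 higher in dendrites (5.71% and 0.827% of all genes), and the median log2 fold change was -2.52 against -1.49 for all genes. The 2 were Tardbp, an RNA-binding protein, at -4.99 ± 1.15 (adjusted p = 0.0124), and Sf1, a splicing factor that binds the branch point, at -5.84 ± 1.62 (adjusted p = 0.0260). Hnrnpk and Qk, of the 3 with the most reads, were at -1.68 ± 0.60 (adjusted p = 0.0685) and -1.003 ± 0.866 (adjusted p = 0.413).

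Miat, a nuclear RNA of neurons also called Gomafu (chromosome 5, 112213228 to 112229395, minus strand), is known to bind Sf1 through repeats of a branch-point-like motif. The core letters ACTAAC, searched on the transcript strand, occur 11 times in the 9163 bases of its longest transcript. As many copies were found in 0.168% of 1784 transcripts of like length, whose median was 1. Bases 5018 to 5047 hold 2 copies, in capitals.
Miat: ACTAACctggcccgagcatgtcctACTAAC
The other 8 genes had 0 to 4 copies in the longest transcript of each. A match of these letters is a description of the sequence, not a binding site measured here.

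Miat had reads in 12 somas and 11 dendrites, but at least 10 reads in 9 somas and 3 dendrites. Somas ran from 0 through 20.6 to 2257 normalized reads and dendrites from 0 through 2.35 to 152. The highest soma, that of neuron 1, was far above the next, that of neuron 10 (308). Of 14 neurons with reads, the soma was higher in 12. The log2 fold change of -2.30 ± 1.27 did not pass the test (adjusted p = 0.207); it passed with DESeq2 (-2.12 ± 0.81, adjusted p = 0.0209), where 46.2% of genes were called higher in somas.

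Dlx6os1, also called Evf2, is antisense to Dlx6 on chromosome 6 (6820189 to 6871592, minus strand) and is known from GABA interneurons. It had reads in 16 somas and 15 dendrites. Somas ran from 15.2 through 613 to 1359.6 normalized reads and dendrites from 0 through 327 to 1641. The soma was higher in 11 of 16 neurons. Dendrites over somas gave a log2 fold change of -1.14 ± 0.85 (adjusted p = 0.341), 0.35 above the median gene. In the 4 neurons with 3 rounds of amplification it was 0.92 ± 0.89, and in the 12 with 2 rounds -1.83 ± 1.08, neither past the test.

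All 9 genes of the list of the Dlx locus and GABA neurons were tested, 3 were called higher in somas and 0 higher in dendrites (5.71% and 0.827% of all genes), with a median of -1.58. Dlx6, the transcription factor gene opposite Dlx6os1, was at -6.02 ± 1.60 (adjusted p = 0.0216), with reads in 15 somas and 7 dendrites. Gad1 was at -1.58 ± 0.38 (adjusted p = 0.0148). Gad2 was at -0.74 ± 0.35 (adjusted p = 0.150), and Dlx5, next to Dlx6, at -4.89 ± 1.84 (adjusted p = 0.0816). The strand was used in the counting, so reads of Dlx6 and of Dlx6os1 were counted apart. The annotated genes Dlx6os2 and Gm44094 overlap Dlx6os1 on the same strand, and strand could not separate their reads from those of Dlx6os1. Of 6 markers of glutamatergic neurons 4 were tested and 0 were called, with a median of 1.66; the 3 with the most reads were Neurod2 at 2.07 ± 1.49, Neurod6 at 0.16 ± 1.21 and Slc17a7 at 2.98 ± 1.28.

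Gas5 (chromosome 1, 161034422 to 161038539, plus strand), a host of 10 annotated snoRNAs whose spliced RNA is exported and broken down during translation, had reads in all 16 dendrites and 15 somas. Dendrites ran from 57.9 through a median of 507 to 1286 normalized reads and somas from 0 through 265 to 2304.5. The dendrites were higher in 10 of 16 neurons and the ranges overlapped. The soma of neuron 12 held 0 reads of Gas5, while its dendrites held 57. On the log2 scale the difference was 0.84 ± 0.76 (adjusted p = 0.435), which was 2.33 above the median gene, and 88.2% of genes had a lower fold change. With the median gene at 0, Gas5 was called higher in dendrites (2.38 ± 0.76, adjusted p = 0.0472; 5.42% of genes were called in that direction), and with spike-in scaling its direction turned (-1.34 ± 1.27, adjusted p = 0.331). The direction of Gas5 therefore depended on the scale.

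The list of snoRNA host genes holds Gas5 but not Snhg11, which was called, or Rian, both described above. Of its 19 genes 12 were tested and 0 were called in either direction, with log2 fold changes from -5.29 for Snhg20 to 2.39 for Snhg10 and a median of -1.25. Snhg6 and Snhg4, which follow Gas5 in number of reads, were at 1.54 ± 0.73 (adjusted p = 0.147, with the dendrites higher in 16 of 16 neurons) and -0.44 ± 1.45 (adjusted p = 0.844). Among other long noncoding RNAs, 13 of 23 listed genes were tested and 1 was called, Mir9-3hg, a microRNA host gene, at -4.86 ± 1.42 (higher in somas, adjusted p = 0.0336). The 3 with the most reads were 1700020I14Rik at 0.34 ± 0.59, 2900097C17Rik at 0.02 ± 0.73 and Sox2ot at -0.46 ± 1.13. Of the coding neighbours 5 of 10 were tested. Of these 1 was called, Dlx6; Frmd8, Dlk1 and Zbtb37 were below the filter and Crybb1 had no reads. Ralgapb, next to Snhg11, was at -1.89 ± 1.07.

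**Figure D2:**
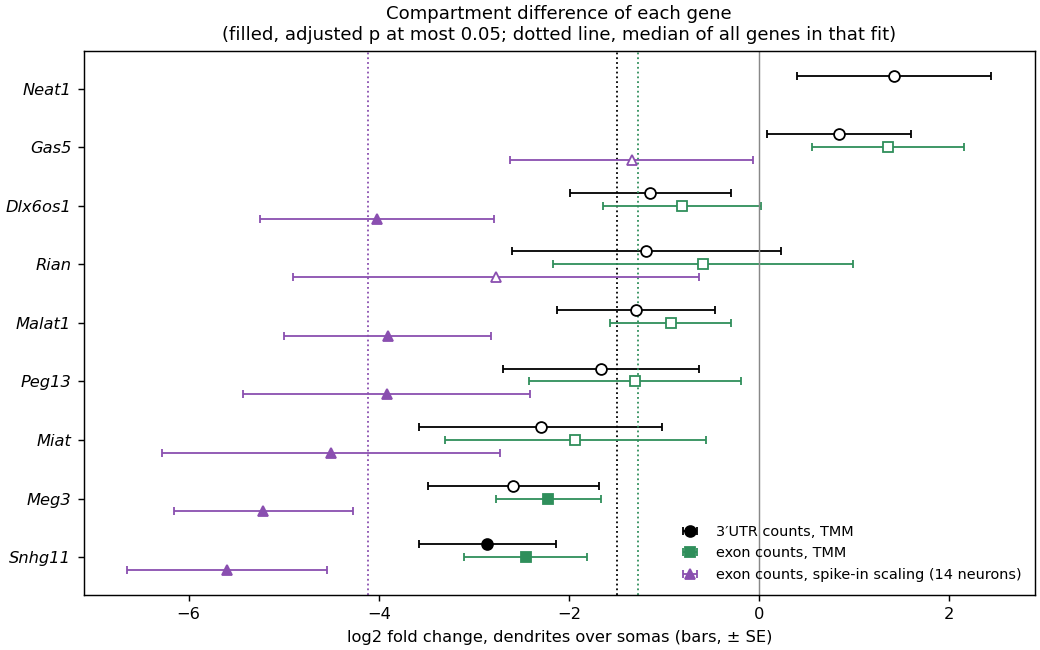
Log2 fold change of dendrites over somas with its SE for each gene, from 3′UTR counts (black circles), exon counts (green squares) and exon counts scaled to spike-ins in 14 neurons (purple triangles); filled symbols passed an adjusted p of at most 0.05 and dotted lines mark the median of all genes in each fit. Snhg11 and Meg3 lay below the median gene in the 3 fits and Gas5 above it, and Neat1 has only the 3′UTR value.

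With spike-in reads as the library size in the 14 neurons that had them, 6 of 8 genes tested were called higher in somas (Snhg11, Meg3, Malat1, Dlx6os1, Miat and Peg13), where 62.7% of 9804 genes were called and the median gene was at -4.11. Against that median Snhg11 was at -1.49 and Meg3 at -1.10, and Gas5 at 2.77. DESeq2, the tool the study used, called 4 of the 9 higher in somas (Snhg11, Meg3, Miat and Peg13), where it called 46.2% of all genes, so the count is near the background. Without the neuron as a block edgeR called 1 of the 9, Snhg11, and 0.708% of genes. For Snhg11 the DESeq2 log2 fold change was -3.20 ± 0.60 (adjusted p = 1.54e-06).

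The share of each gene's normalized reads that came from dendrites was also taken per neuron, in neurons with at least 10 normalized reads of the gene. It averaged 21.7% ± 27.8 (SD, n = 16) for Snhg11, 28.7% ± 32.8 for Meg3 and 26.8% ± 19.9 for Peg13. Malat1 had 34.0% ± 30.0, Dlx6os1 34.8% ± 29.0 and Rian 40.3% ± 38.8. Miat had 13.9% ± 16.0 over 8 neurons. Gas5 stood at 57.3% ± 25.9, with 10 of 16 neurons above 50%. Neat1 had 83.2% ± 22.7 over 6 neurons, and 55.6% ± 40.2 once neurons with any read were used. The mean over genes of the same quantity had a median of 33.5% over 10331 genes with at least 5 neurons.

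The share differed widely between neurons. Neurons 2, 5 and 6 had over 50% of Snhg11, Meg3 and Malat1 reads in the dendrites, from 51.4% for Malat1 in neuron 5 to 86.4% for Snhg11 in neuron 5. Neurons 4, 7, 15 and 16 had 5.20% or less of each. Neurons 15 and 16 had 0% of Malat1, Rian and Peg13 in the dendrites, with no reads there, but 72.3% and 57.7% of Gas5. Scaled to spike-ins, the shares were lower, at 13.2% ± 24.3 (n = 14) for Meg3, 12.9% ± 25.5 for Snhg11 and 35.2% ± 29.4 for Gas5, against a median over genes of 18.9%. On that scale neuron 5 had from 73.8% (Malat1) to 94.7% (Snhg11) of Malat1, Meg3 and Snhg11 in dendrites. Neuron 6 had from 24.4% (Meg3) to 47.6% (Malat1) of them there, and neuron 2 had no value.

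**Figure D3:**
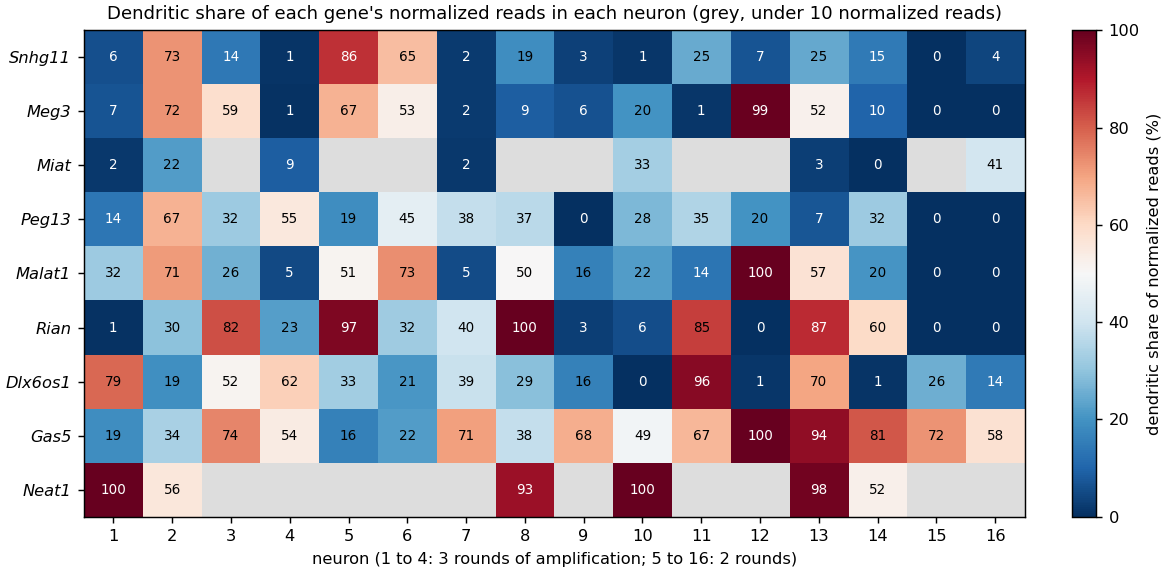
Dendritic share of normalized reads in percent (colour and printed value) for each gene and neuron, with grey cells where a neuron had under 10 normalized reads of the gene. Snhg11, Meg3 and Malat1 were mostly in dendrites in neurons 2, 5 and 6 and mostly in somas in neurons 1, 4, 7, 9, 10, 11, 14, 15 and 16. Gas5 was mostly in dendrites in 10 neurons.

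The number of dendrites in which a gene had reads is another measure. Snhg11 and Gas5 had reads in all 16 dendrites, as did 8.01% of the 10880 genes tested. Meg3 and Dlx6os1 had reads in 15, a number that 17.1% of genes reached or passed, and Malat1 and Peg13 in 14 (26.5%). Rian had reads in 13, Miat in 11 and Neat1 in 10. When both libraries of a neuron were thinned to the smaller total, the number of dendrites was the same for all 9 genes, and the number of somas fell by 1 for Miat and for Rian and from 12 to 8 for Neat1. At least 10 reads were found in 14 dendrites for Malat1, Meg3 and Snhg11, and in 3 for Miat.

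Levels of some of these RNAs varied together over the 16 somas. Between Meg3 and Snhg11 Spearman's rho was 0.97 and Pearson's r 0.84 on log2(normalized reads + 1), and between Malat1 and Meg3 they were 0.92 and 0.96. The same 5 somas, those of neurons 2, 3, 5, 6 and 12, were the lowest 5 for Meg3 and for Snhg11. The values are descriptions over single cells that share libraries, depth and scaling, so no p is given. Without the soma of neuron 12, rho was 0.97 for Meg3 and Snhg11 and 0.90 for Malat1 and Meg3, and without the 2 somas farthest from the median of the first gene r was 0.93 and 0.94. Malat1 and Snhg11 had a rho of 0.86 and Miat and Meg3 of 0.80. Dlx6os1 and Meg3 had a rho of -0.14, and the highest rho of Peg13 with any other member in somas was 0.18, with Gas5.

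In dendrites rho was 0.53 for Meg3 and Snhg11, 0.49 for Miat and Meg3, and 0.76 for Malat1 with Meg3 and with Snhg11. Each was below its value in somas. Not every pair was looser, since Malat1 and Peg13 had a rho of 0.60 in dendrites and -0.26 in somas. Without the dendrites of neurons 15 and 16, which held almost no reads of Meg3 or Malat1, rho was 0.65 for Malat1 and Meg3. For Malat1 and Snhg11 it was then 0.85, close to the value in somas. Meg3 and Rian, from 1 domain, had a rho of 0.54 in somas and 0.48 in dendrites.

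**Figure D4:**
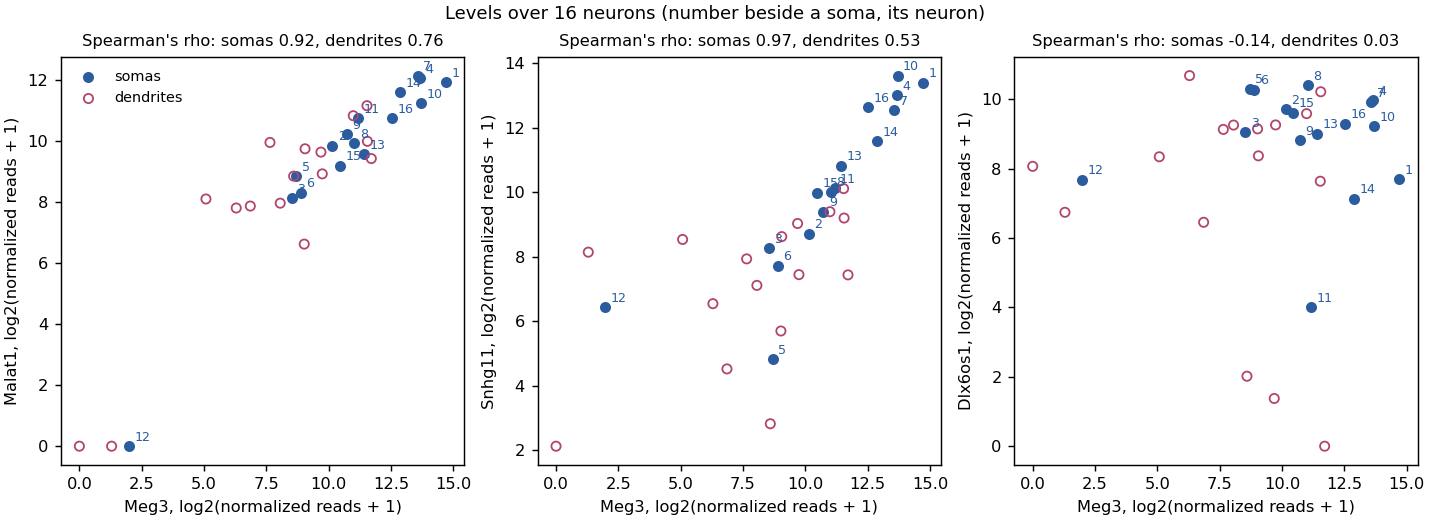
Levels of Malat1, Snhg11 and Dlx6os1 against Meg3 on a log2(normalized reads + 1) scale in 16 somas (blue, numbered by neuron) and 16 dendrites (open red circles). The somas lie along a line for Malat1 and Snhg11, with that of neuron 12 at the low end, and show no line for Dlx6os1 (rho -0.14).

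For each gene the gene outside the 9 with the highest rho over somas is given as a description. It was Mro for Meg3 (0.86), Snhg11 (0.86) and Malat1 (0.87), with 259 soma reads of Mro in all, Fam149b for Miat (0.92) and Park2 for Rian (0.87). For Neat1 it was Gm17529 (0.93, 30 soma reads), for Peg13 Psmd3 (0.82), for Dlx6os1 Mettl4 (0.88) and for Gas5 Lyst (0.83). The median rho over all genes was 0.11 or less for each of the 9. Each is the highest value among the 10880 genes tested once the 9 are left out, and is given as a description only.

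Reads were also counted on single 3′ end features, the last 500 bases of each annotated 3′ end. The features held 44.8% of the 3′UTR reads of Rian, 50.7% of those of Meg3, 63.0% for Dlx6os1 and 68.1% for Malat1. They held 42.0% for Neat1 and over 90% for the other genes. The shares below are of feature reads. Malat1 had 2 features, and feature 2 was the top feature in all 14 dendrites and all 15 somas with at least 10 feature reads, with a mean of 96.6% ± 6.32 and 93.5% ± 13.4 of reads (SD). Snhg11 had 5 features, and feature 1 took 81.5% ± 26.8 in 13 dendrites and 88.3% ± 7.14 in 16 somas. Dlx6os1 had 2, and feature 1 took 90.3% ± 15.1 in 11 dendrites and 84.2% ± 13.9 in 16 somas. Miat reads were almost all on the first of its 3 features, and Peg13 and Gas5 had 1 feature each.

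Reads of Meg3 and Rian lay on more features. The longest transcripts of Meg3, Snhg11, Rian and Malat1 hold 7, 3, 2 and 1 runs of 8 or more A. Those of Miat, Neat1, Peg13, Dlx6os1 and Gas5 hold 0. Whether amplification also started at such runs was not tested, so a feature with reads is not shown to be an end in use. Somas with at least 10 feature reads used 5.80 ± 1.01 (SD, n = 15) of 7 Meg3 features and dendrites 3.93 ± 1.27 (n = 14), at dendrite counts that were lower. Feature 3 took the largest mean share, 44.8% ± 26.8 in dendrites and 35.6% ± 21.9 in somas. Rian had 13 features, and its top feature differed among samples, with 7 different features at the top in 10 dendrites and 5 in 14 somas. The top feature of a sample held on average 82.9% ± 18.6 of its Rian feature reads in dendrites and 68.6% ± 25.3 in somas.

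The share of the second of the top 2 features was compared between the compartments of the same neuron where both had at least 10 reads, in 3522 genes. Of the 9 genes 4 could be tested and 0 passed (exact signed-rank test, two-sided, adjusted p = 1 for each; 0 of 3522 genes, 0.0%, had an adjusted p of at most 0.05, and 159 an unadjusted p under 0.05). The share of feature 2 of Dlx6os1 was 9.66% ± 15.1 in dendrites and 17.7% ± 14.6 in somas (n = 11 neurons, exact p = 0.365), lower in the dendrites in 7 neurons. For Meg3, the share of feature 3 against feature 1 was 72.3% ± 26.1 in dendrites and 65.5% ± 23.3 in somas (n = 13, exact p = 0.455). Malat1 and Snhg11 differed by 2.31 and -0.68 percentage points (exact p = 1.0 with n = 13 and 0.519 with n = 12). The features carry no coordinates in the table used here, so the share is given by feature number and not as proximal or distal.

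**Figure D5:**
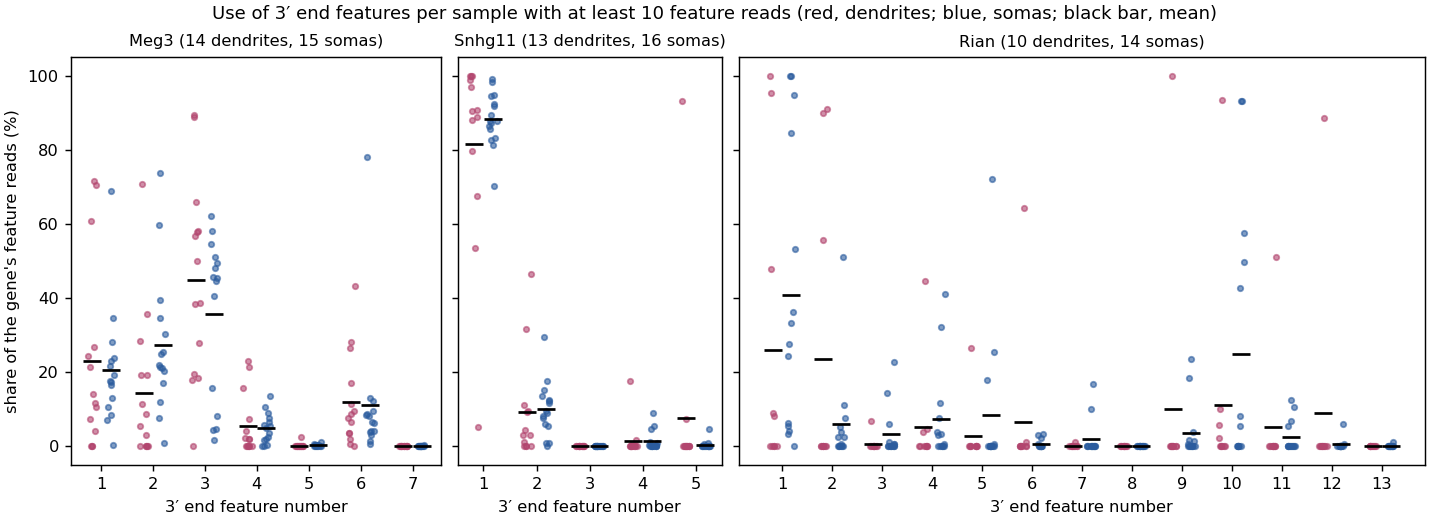
Share of the feature reads of Meg3, Snhg11 and Rian on each 3′ end feature (feature numbers on the x axis) in each sample with at least 10 feature reads, red for dendrites and blue for somas, black bars for means. Snhg11 reads gather on feature 1, Meg3 reads spread over features 1, 2, 3 and 6, and the Rian feature with most reads changes from sample to sample.

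The labels give the rounds of amplification and the spike-in dilution, which is 0 for neurons 1 and 2 and 1 in 4000000 for neurons 3 to 16. Neurons 1 and 2 both had 3 rounds, and the dilution was not tested. In neurons with 2 rounds the log2 fold change was -2.95 ± 0.88 for Snhg11 (adjusted p = 0.0446) and -2.88 ± 0.99 for Meg3 (adjusted p = 0.0737), and 3.25% of genes were called higher in somas. In the 4 neurons with 3 rounds it was -2.37 ± 0.81 (adjusted p = 0.598) and -1.30 ± 0.77 (adjusted p = 0.820), and 0.0092% were called. The difference between the rounds was tested as an interaction and was called for 0 of the 9 genes (and for 0 of 10880 genes, 0.0%, in either direction; 0 of the 9 had an unadjusted p under 0.05), with 0.34 ± 1.64 for Snhg11 and 2.52 ± 1.84 for Dlx6os1.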

How the data were processed

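Per the study's methods, the authors removed adapters and poly-A stretches, mapped reads to mm10 with STAR (2.4.0 per the submitters' processing notes) and counted uniquely mapped, strand-matched reads with VERSE. The deposited values are raw read counts, whole numbers without normalization: on the union of 3′UTR regions per gene, on 3′ end features, and on exons and 92 ERCC spike-ins. How 3′UTR regions were set for genes without a coding sequence is not given in the sources used here. Without molecular identifiers, limits on a count of 0 cover counting error only; SEs and SDs hold the spread between cells.

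From these counts, dendrites and somas were compared with edgeR 4.0.16 (TMM, robust quasi-likelihood test, neuron as a block) over the 10880 genes whose reads, 1 or more, were present in 16 or more of 32 samples, at a Benjamini-Hochberg adjusted p of at most 0.05. The SE is the fold change over the square root of F. DESeq2 1.42.0 was an alternative, and R 4.3.3, Python 3.11.15, NumPy 2.4.6, pandas 2.3.3 and SciPy 1.17.1 were used. Size factors came from 805 genes with reads in every sample. Older symbols were matched through RefSeq synonyms. Pairs come from the cells; correlations of deviations between a neuron's compartments ran from -0.0151 to 0.237 (median 0.0641), and 9 of 16 dendrites correlated best with their own soma. In counts simulated for this comparison over 10880 genes, 89 of 200 genes changed by 4 on the log2 scale were called, and 1 of 10680 others. The planned share of the distal 3′ end could not be assigned, since features carry no coordinates, and was replaced by the share of the higher-numbered of the top 2 features.

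All 9 genes were named. Of the gene lists, genes were named that were called, that neighbour one of the 9, or that were among the 3 with the most reads of a list. The values of 2 such genes are not reported here. The genes and lists were chosen with earlier results of these data known. Alternatives covered the tool, scaling, filters, exon counts, the block, the rounds and each neuron left out; leaving out neurons 12, 15 and 16 together was chosen after seeing the data. Nothing says that neurons came from separate animals, so p-values measure the spread between cells.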

Additional observations from a re-analysis of the deposited data

How the results depend on the processing

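Of the 9 genes, 1 was called higher in somas. The count was 4 with DESeq2 (46.2% of all genes called), 2 with all genes that had at least 1 read (0.46%), 2 on exon counts (2.62%), 6 with spike-in scaling (62.7%), and 0 with the median gene at 0 (0.827%), in neurons with 3 rounds only (0.0092%) and without neurons 12, 15 and 16 (0.901%; chosen after seeing the data). With 1 neuron left out at a time it ran from 0 to 2 (1.19% to 9.1% of genes): Snhg11 was lost without neuron 16 (adjusted p = 0.0509; range 0.00852 to 0.0509), and Meg3 was gained without neuron 2, 5 or 12 (range 0.0345 to 0.323). Without the replicate block it stayed 1, with 77 genes called higher in somas against 621, and Snhg11 at -3.35 (adjusted p = 0.00169); the pairing moved no other member's call. The count higher in dendrites was 0, and 1 (Gas5) with the median gene at 0. Directions reversed with the median gene at 0 for Malat1 (0.24), Rian (0.34) and Dlx6os1 (0.39), where the rescaling itself raised the fold changes together. With spike-in scaling, where the median gene was at -4.11, Gas5 reversed (-1.34). Reversals also came with 3 rounds only for Peg13 (0.063) and Dlx6os1 (0.92), and without neurons 12, 15 and 16 for Rian (0.036). The cause of these last reversals was not tested. The other fits gave 74 of 95 log2 fold changes with the same direction and call. Neat1 and Miat had at least 10 reads in 2 and 3 dendrites.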
